A study of Mus musculus with 12 samples.

Results

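Mouse subcutaneous white adipose tissue (scWAT), the fat under the skin, holds mammary ducts as well as fat cells. The expression of 35 genes of mammary epithelium was followed in 12 RNA-seq libraries of scWAT. The 35 genes were chosen by name as genes of the luminal, basal and secretory epithelium of the mammary gland, out of the 55401 genes counted. All 35 were matched to the gene IDs of the files, and all 35 were among the 16540 genes that had enough counts to be tested. The list was not drawn by a threshold on any measured value, but it was chosen with earlier results of these data known.

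Each library came from 1 female mouse, and there were 3 libraries in each of 4 groups. Wild-type (*Jmjd1a* +/+) and *Jmjd1a* HY/HY mice were kept at 30°C or at 8°C, which gives 4 groups, called warm and cold wild-type mice and warm and cold HY/HY mice below. All mice were 16 weeks old at the start, were caged singly and spent 1 week at 30°C before the 1 week at the temperature that names the group. JMJD1A, encoded by *Kdm3a*, is a histone H3 lysine demethylase, and the HY allele carries a histidine-to-tyrosine point mutation that abolishes its activity. The mutation was made by genome editing in eggs of C57BL/6J mice, and the mice came from 1 of the lines obtained. The allele is present in every cell of the body, so the epithelium and the fat cells around it carry it alike. The stage of the oestrous cycle and the exact place of the piece of fat pad taken were not given in the sources used here.

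The mammary gland of a mouse that has not been pregnant is a tree of ducts inside the fat pad. The duct wall has a luminal layer, which makes simple-epithelial keratins and, during lactation, milk, and a basal layer, which makes stratified-type keratins and contracts to expel milk. Some luminal cells carry receptors for oestrogen and progesterone and pass the signal on by secreted factors, whereas others depend on the transcription factor ELF5 and are the forerunners of the milk-making alveoli. In whole tissue a lower level of a gene of one cell type can come from fewer such cells or from less RNA per cell, and these cannot be told apart here.

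The counts used were read pairs on the sense strand of each gene, and levels are in CPM, counts scaled to a common library size that was adjusted by the trimmed mean of M-values (TMM). The total per library was between 13592629 and 26352081 counts, so 1 count was worth between 0.0344 and 0.0811 CPM. Every library at 8°C had a smaller total than every library at 30°C. *Kdm3a* was present at 35.6 to 61.6 CPM in all libraries, which is no check of a point mutation. *Ucp1*, which marks beige fat, was between 0.116 and 4.57 CPM at 30°C, between 5042 and 6048 CPM in cold wild-type mice and between 211 and 903 CPM in cold HY/HY mice. A pair of libraries stood apart. Warm wild-type library 2 held markers of skin and of skeletal muscle: *Krt1* and *Krt10*, keratins of the outer epidermis, were each at 50.5 CPM, and a list of 10 muscle genes summed to 1448 CPM against 4.16 to 24.9 CPM in the other 11 libraries. Warm HY/HY library 3 had the lowest level of 29 of the 35 mammary genes and the highest summed level of 8 fat-cell genes, 51020 CPM against 22540 to 50540 CPM elsewhere. The counts of called genes and the members' medians are therefore given with and without these libraries.

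The 35 genes together made a visible and uneven part of the RNA of the pads. Their summed level was 6353, 8368 and 4951 CPM in the 3 warm wild-type mice, and 3613, 4090 and 1469 CPM in the warm HY/HY mice. At 8°C it was 3257, 3599 and 3344 CPM in wild-type mice and 2801, 3246 and 2088 CPM in HY/HY mice. The warm wild-type mice were thus above all 9 others. The warm HY/HY mice overlapped both groups at 8°C, and at 8°C the highest HY/HY mouse lay just below the lowest wild-type mouse. As a share of all counts, the sum ran from 0.135% (95% Wilson interval 0.133% to 0.136%, counting error only) in warm HY/HY library 3 to 0.982% (0.978% to 0.986%) in warm wild-type library 2. The intervals are far narrower than the spread between mice of one group.

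Mice of one group differed more in these genes than in the genome at large, mostly at 30°C. Over the 32 members with at least 10 counts in every library, the median fold between the highest and the lowest mouse of a group was 1.95 in warm wild-type and 2.88 in warm HY/HY mice. For all 13644 genes with that many counts it was 1.31 and 1.35. At 8°C the members' median fold was 1.27 in wild-type mice and 1.61 in HY/HY mice, against 1.20 and 1.23 for all genes. Warm wild-type library 2 was the highest of the 12 for 27 of the 35 members.

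**Figure D1:**
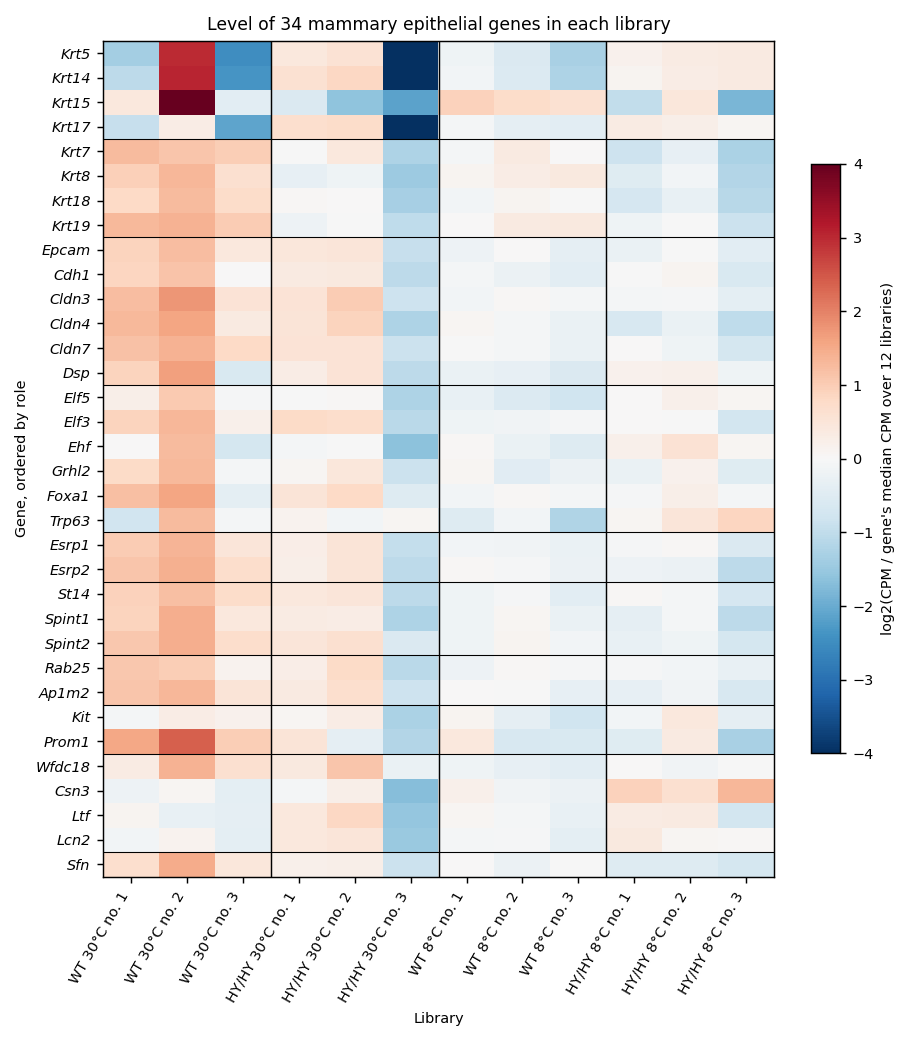
Level of 34 of the 35 mammary epithelial genes (rows, grouped by role) in the 12 libraries (columns, grouped by genotype and temperature), as log2 of CPM over the gene's median of the 12, with the colour scale ended at 4 in each direction. *Lalba* is left out because it was listed at 0 in 1 library; warm wild-type library 2 is the highest column for 27 of the 35 genes and warm HY/HY library 3 the lowest for 29.

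The luminal keratins KRT8, KRT18, KRT19 and KRT7, which form the filaments of simple epithelia, carried the largest share of the sum in every library, from 43.6% to 68.6%. Per kilobase of merged exons, the mean level over the 12 libraries was highest for *Krt18* (469 CPM per kb), *Krt19* (413 CPM per kb) and *Krt8* (309 CPM per kb), followed by the adhesion molecule gene *Epcam* (93.7 CPM per kb). The lowest were *Grhl2* (2.27 CPM per kb), *Trp63* (1.06 CPM per kb) and *Lalba* (0.525 CPM per kb). On mm10, *Krt7*, *Krt8*, *Krt18* and the basal keratin gene *Krt5* (chr15:101707069-101712905) lie on chromosome 15, and *Krt19* and the basal keratin genes *Krt14* (chr11:100203162-100207510), *Krt15* (chr11:100131759-100135949) and *Krt17* on chromosome 11. Read pairs that matched several places were not counted, so levels of keratins with near-identical copies are uncertain.

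*Krt19* was at 1462, 1569 and 1201 CPM in warm wild-type mice, at 516, 587 and 293 CPM in warm HY/HY mice, at 596, 756 and 772 CPM in cold wild-type mice and at 523, 588 and 323 CPM in cold HY/HY mice. The 3 warm wild-type mice stood above all others. The lowest cold wild-type mouse, at 596 CPM, lay just above the highest HY/HY mouse, at 588 CPM. Warm and cold HY/HY mice overlapped. *Krt8* was at 942, 1215 and 768 CPM in the first of these groups, at 392, 435 and 179 CPM in the second, at 528, 592 and 636 CPM in the third and at 349, 449.9 and 216 CPM in the fourth. At each temperature, no HY/HY mouse reached the *Krt8* level of any wild-type mouse.

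The keratins of the basal layer ranked the libraries in another order. *Krt5* was at 15.6, 313 and 7.17 CPM in warm wild-type mice, at 53.1, 58.8 and 0.935 CPM in warm HY/HY mice, at 35, 26.6 and 16 CPM in cold wild-type mice and at 45.1, 49.5 and 50.6 CPM in cold HY/HY mice. Both extremes were in mice at 30°C, and at 8°C the genotypes did not overlap. *Krt14*, the partner with which KRT5 forms filaments, followed it: counts of *Krt5* per count of *Krt14* were between 1.06 and 1.37 in 11 libraries and 0.621 in warm HY/HY library 3, where both were low. *Krt15*, a keratin of basal cells of skin and hair follicle, was at 59.4 CPM in warm wild-type library 2 and at 0.260 to 2.15 CPM in the other 11 libraries.

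Summed, the luminal keratins were 106, 7.39 and 208 times the basal keratins in warm wild-type mice and 15, 14.8 and 267 times in warm HY/HY mice. At 8°C the ratio was 25.2, 39.8 and 57.9 in wild-type mice and 14.9, 16.9 and 9 in HY/HY mice. The ratio varied widely between mice at 30°C, and at 8°C it was lower in every HY/HY mouse than in every wild-type mouse. The summed level of 14 genes of epidermis and hair follicle was 166 CPM in warm wild-type library 2 and 13.2 to 23.9 CPM in the other 11. Its part in the basal keratin level of that library was not tested. At 8°C that list summed to 21.8, 19.1 and 18 CPM in wild-type mice and 22.4, 23.4 and 23.9 CPM in HY/HY mice, so there the groups did not overlap in it either.

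**Figure D2:**
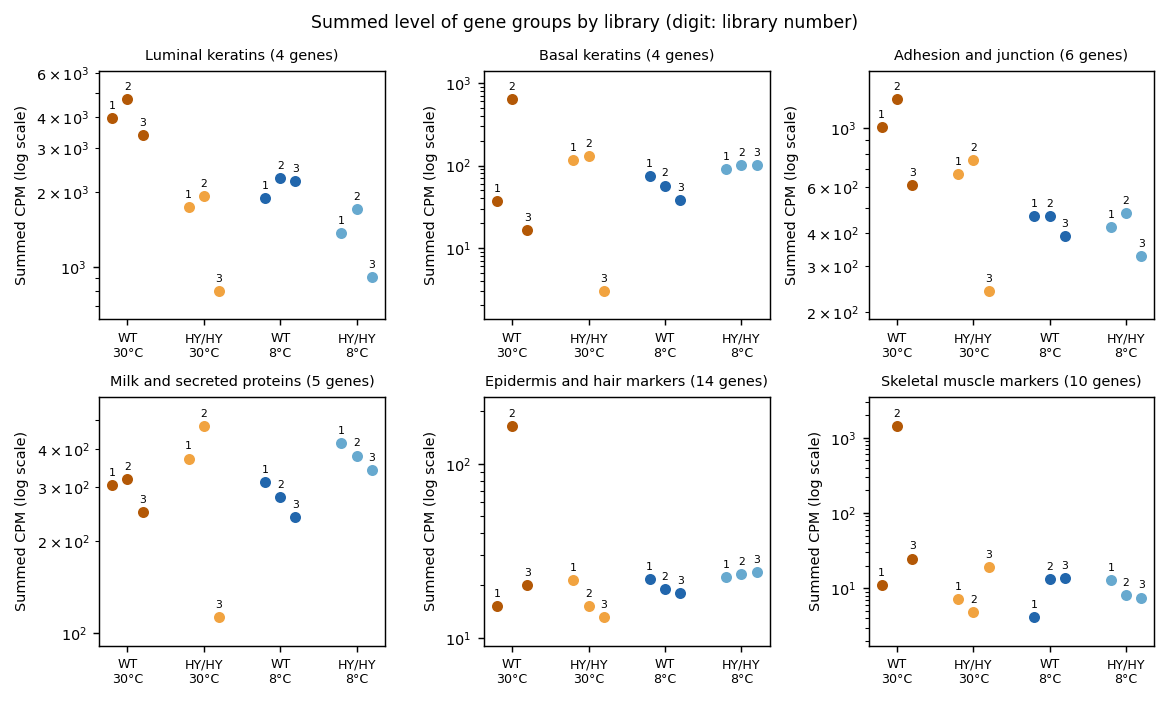
Summed level in CPM (log axis) of 4 sets of members by role and of marker lists of epidermis and hair follicle and of skeletal muscle, 1 panel for each set, with the 12 libraries as points by group and digits giving the library number. The luminal keratins are highest in the 3 warm wild-type mice (3395 to 4705 CPM), while the basal keratins span 3.01 to 637 CPM among the 6 mice at 30°C and 38.3 to 101 CPM among the 6 at 8°C.

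The first comparison asked what 1 week of cold did to these genes in wild-type mice. Of the genes of adhesion and junctions 3 of 6 fell, of the genes of membrane proteases and their inhibitors 2 of 3 and of the luminal keratin genes 1 of 4, and both genes of epithelial splicing regulators fell. Of the 5 genes of secreted milk and defence proteins only *Wfdc18* passed the test. In the quasi-likelihood test of edgeR, with p-values adjusted over all genes by the Benjamini-Hochberg method, 13 of the 35 members fell at 8°C (adjusted p under 0.05 and a fold beyond 1.5) and 0 rose. Of all genes tested, 6.93% were called lower and 10.3% higher in this comparison. The members' median log2 fold change was −1.02, against −0.07 over all genes, and 31 of 35 were negative. The 3 mice at 8°C lay below the 3 at 30°C for 21 members, against 22.7% of all genes, and wholly above for 0 (43.4% of all genes did not overlap in one direction or the other).

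Among the genes of adhesion and junctions, 3 of 6 fell and all 6 were negative. *Epcam* was at 301, 382 and 221 CPM at 30°C and at 142, 166 and 127 CPM at 8°C. The groups did not overlap, and the log2 fold change was −1.05 ± 0.316 (SE, edgeR adjusted p = 0.0312). *Cldn3* and *Cldn7*, which encode claudins of tight junctions, fell by 1.31 and 1.27 on the log2 scale (edgeR adjusted p = 0.0289 and 0.0148). For *Cldn4*, another claudin, the log2 fold change of −1.25 did not pass (edgeR adjusted p = 0.0590), although its 3 mice at 8°C (100.5 to 127 CPM) lay below those at 30°C (154 to 361 CPM). *Cdh1*, which encodes E-cadherin, was at 207, 255 and 116 CPM at 30°C and at 109, 97.9 and 86.0 CPM at 8°C.

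Both genes of epithelial splicing regulators fell, *Esrp1* by 1.17 and *Esrp2* by 1.18 on the log2 scale (edgeR adjusted p = 0.0216 and 0.0271). *St14*, which encodes the membrane protease matriptase, and *Spint2*, which encodes an inhibitor of such proteases, fell together. *Spint2* was at 207, 274 and 159.8 CPM at 30°C and at 87.2, 108 and 91.3 CPM at 8°C. It had the smallest adjusted p of the members in edgeR's test (log2 fold change −1.16 ± 0.288 SE, adjusted p = 0.0136), and the groups were well apart. *Spint1*, a related inhibitor, missed the limit (log2 fold change −1.10, edgeR adjusted p = 0.0512). *Ap1m2*, a subunit of the adaptor that sorts proteins to the basolateral membrane, fell by 1.12 on the log2 scale (edgeR adjusted p = 0.0251), and *Sfn*, which encodes stratifin, an adaptor protein of epithelia, by 1.01 (edgeR adjusted p = 0.0281).

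*Prom1*, a surface protein of luminal cells, had the largest fall of the 13. It was at 45.9, 82.7 and 30.9 CPM at 30°C and at 21.1, 10.2 and 10.3 CPM at 8°C (log2 fold change −1.94 ± 0.518 SE, edgeR adjusted p = 0.0193), without overlap. Of the 6 transcription factor genes only *Elf5* fell, by 1.00 on the log2 scale from 24.6, 43.2 and 20.2 CPM to 17.2, 14.5 and 12.2 CPM (edgeR adjusted p = 0.0436), and the other 5 were negative. *Foxa1*, whose product opens chromatin for the oestrogen receptor, was at 277, 356 and 91.8 CPM at 30°C and at 112, 125 and 113 CPM at 8°C, which overlapped. *Elf3* did not overlap (24.3 to 53.5 CPM and then 18.9 to 20.2 CPM), and *Grhl2*, a grainyhead-like factor that activates junction genes, did (10.7 to 27.9 CPM and then 8.14 to 11.9 CPM). Among the luminal keratins *Krt19* fell (log2 fold change −0.995 ± 0.273 SE, edgeR adjusted p = 0.0219), while *Krt18* and *Krt7* were just outside (log2 fold changes −0.95 and −1.02, edgeR adjusted p = 0.0506 and 0.0512), and all 4 had no overlap between the temperatures.

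The 5 genes of milk and secreted proteins had a median log2 fold change of 0.08. Among them *Wfdc18*, a small secreted protein of luminal cells, fell by 1.17 on the log2 scale (edgeR adjusted p = 0.0217). *Csn3*, which encodes kappa-casein, was at 58.7, 71.5 and 51.8 CPM at 30°C and at 77.1, 60.7 and 57.3 CPM at 8°C, and these overlapped (log2 fold change 0.10, edgeR adjusted p = 0.870). *Ltf* and *Lcn2* encode lactoferrin and lipocalin 2, defence proteins that bind iron or its carriers, and both are also made by neutrophils. *Ltf* was at 168, 126 and 119.7 CPM and then at 163, 148 and 125 CPM, and *Lcn2* at 49.8, 59.1 and 40.2 CPM and then at 50.2, 52.1 and 40.7 CPM. The neutrophil genes *Ngp*, *Camp* and *Ly6g* did not exceed 0.149, 0.243 and 0.0647 CPM in any library, and 10 neutrophil genes summed to 1.17 to 5.30 CPM, although 1 of them, *S100a8*, rose with cold in wild-type mice (log2 fold change 1.70, edgeR adjusted p = 0.0293).

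The number of wild-type falls rested on single libraries more than their direction did. Without warm wild-type library 2 or cold wild-type library 3 it was 0, where 11.3% of all genes were called in either direction. With all libraries that share was 17.3%. The number was 2 without cold wild-type library 1 (12.8%) or 2 (12%). It was 8 without warm wild-type library 1 (13.8%) and 22 without warm wild-type library 3 (20.1%). Without warm HY/HY library 3, which is in neither group of this comparison, it was 24 (19.4%). With both libraries that stood apart left out, 17 members fell, the 13 among them, and *Krt5* and *Krt17* rose (15.6% of all genes were then called). The 6 muscle genes that fell in the same comparison, among them *Acta1* and *Ckm*, were high in warm wild-type library 2.

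**Figure D3:**
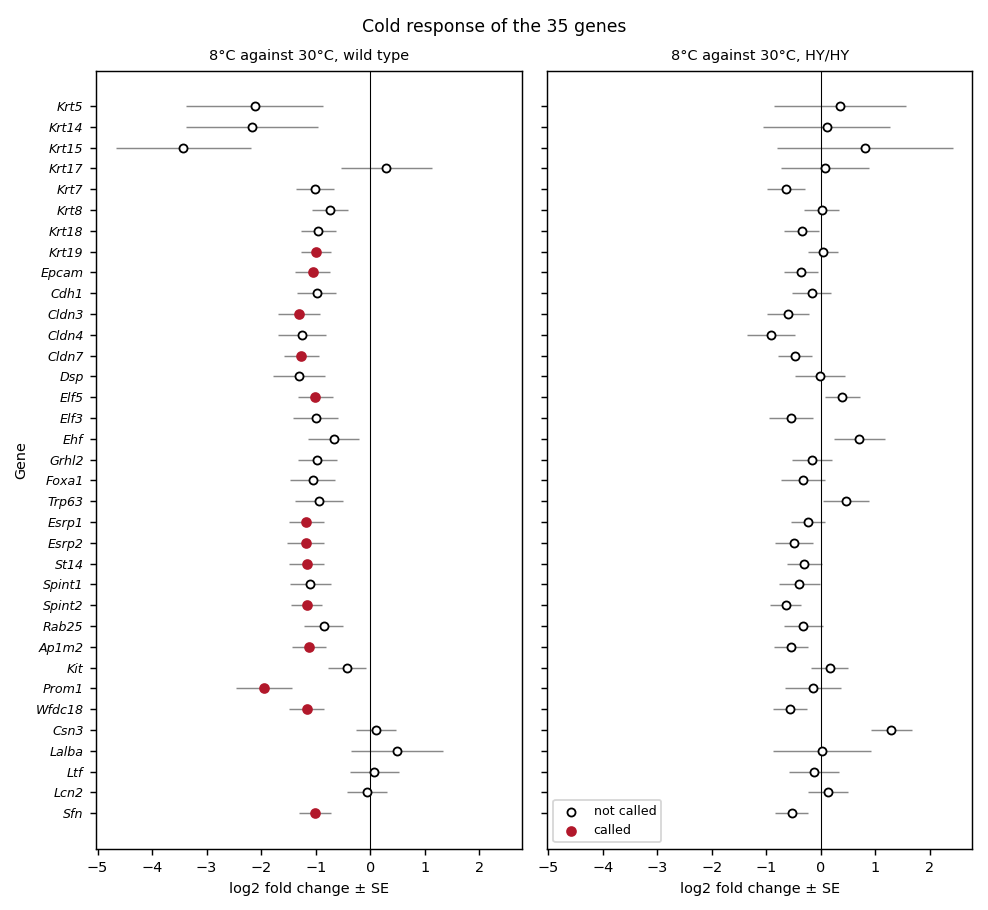
Log2 fold change of each of the 35 members at 8°C against 30°C (points, with bars of 1 SE) in wild-type and in HY/HY mice, with filled points for genes that passed the test. In wild-type mice 31 of 35 points are negative and 13 are filled, and in HY/HY mice 22 are negative and 0 are filled.

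In HY/HY mice the same week of cold gave no call among the members. By edgeR's quasi-likelihood test 0 of 35 rose and 0 fell, where 0.248% of all genes were called (0.181% higher and 0.0665% lower), and 2 members had an unadjusted p under 0.05. DESeq2 called 1 member, *Csn3*, higher. With the replicate number as a block, edgeR called 0 members and 0.967% of all genes. The median log2 fold change was −0.17, against −0.01 over all genes, with 22 of 35 negative. The mice at 8°C lay wholly above those at 30°C for 2 members, *Csn3* and *Ehf*, and wholly below for 0, against 9.33% and 8.99% of all genes.

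*Csn3* went from 63.2, 79.5 and 20.8 CPM at 30°C to 127, 104 and 171 CPM at 8°C in HY/HY mice (log2 fold change 1.29 ± 0.370 SE, edgeR adjusted p = 0.162). All 3 mice in the cold were thus higher than any mouse of the other 3 groups. *Ehf*, a transcription factor gene of the same family as *Elf5*, went from 14.9, 15.5 and 5.04 CPM to 18.2, 23.2 and 16.5 CPM (log2 fold change 0.70, edgeR adjusted p = 0.520). *Spint2*, the other member with a small unadjusted p, was at 137, 156 and 66.1 CPM and then at 80.6, 88.5 and 60.3 CPM (log2 fold change −0.65 ± 0.286 SE, edgeR adjusted p = 0.330).

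This comparison depended strongly on warm HY/HY library 3. Without it 5 members were called, *Csn3* higher and *Cldn4*, *Cldn7*, *Krt7* and *Spint2* lower, where 3.92% of all genes were. Without both libraries that stood apart 11 were called, where 5.10% of all genes were. Of these *Csn3* was higher, *Ap1m2*, *Cldn3*, *Cldn4*, *Cldn7*, *Elf3*, *Epcam*, *Krt7*, *Sfn*, *Spint2* and *Wfdc18* were lower, and the median was −0.56.

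Whether the cold response differed between the genotypes was tested by the interaction, in which the wild-type response is subtracted from that of HY/HY mice. No member passed in edgeR's test (0 of 35, against 2.24% of all genes, 0.169% higher and 2.07% lower), and 5 had an unadjusted p under 0.05. These were *Elf5* (log2 difference 1.40 ± 0.461 SE, edgeR adjusted p = 0.166), *Krt19* (1.04, adjusted p = 0.223), *Prom1* (1.80, adjusted p = 0.264), *Csn3* (1.19, adjusted p = 0.306) and *Trp63* (1.39, adjusted p = 0.311). For 32 of 35 members the difference was positive, with a median of 0.71 against 0.04 over all genes. The median was 0.08 without the libraries that stood apart, and 0 members passed then too, nor did any by DESeq2.

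The genotypes were next compared at 30°C. *Krt19* was lower in HY/HY mice, by a log2 fold change of −1.60 ± 0.277 (SE, edgeR adjusted p = 0.0292), from a mean of 1411 ± 189 CPM in wild-type mice to 465 ± 153 CPM (SD). It was the only member called in this test, where 0.441% of all genes were called lower and 0.562% higher. The next were *Krt8* (log2 fold change −1.54 ± 0.333 SE, edgeR adjusted p = 0.0519), *Krt15* (−5.41 ± 1.39 SE, adjusted p = 0.0798) and *Krt18* (−1.24 ± 0.325 SE, adjusted p = 0.0817). The value of *Krt15* rests on warm wild-type library 2, where it was at 59.4 CPM, against 1.54 and 0.850 CPM in libraries 1 and 3.

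All 4 luminal keratins were without overlap between the genotypes at 30°C, and 12 of the 35 members lay wholly lower in HY/HY mice, against 10.6% of all genes, and 0 wholly higher, against 7.67%. The median log2 fold change was −0.83, against −0.01 over all genes, with 32 of 35 negative. The milk and secreted genes had a median of −0.15. Among them *Ltf* was at 207, 274 and 53.4 CPM in HY/HY mice and at 168, 126 and 119.7 CPM in wild-type mice. The call of *Krt19* was lost with only the libraries of the comparison (adjusted p = 0.213 in edgeR) and without wild-type library 1 or 2 at 30°C, any cold wild-type library or cold HY/HY library 1. Without both libraries that stood apart no member was called lower, *Krt5*, *Krt14* and *Krt17* were called higher (0.386% of all genes were called), and the median was −0.13.

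At 8°C no member passed the test between HY/HY and wild-type mice. In edgeR's quasi-likelihood test 0 of 35 were called, where 5.93% of all genes were (1.51% higher and 4.42% lower), and 4 had an unadjusted p under 0.05. DESeq2 also called 0. The median log2 fold change was −0.05, against 0.01 over all genes. The HY/HY mice lay wholly above the wild-type mice for 10 members and wholly below for 6, against 16.4% and 19.0% of all genes. The share that lay below was thus no larger than among all genes, and the members in it are given by their values only.

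The 10 that were higher included the basal keratin genes *Krt5*, *Krt14* and *Krt17*, the basal cell regulator gene *Trp63*, the alveolar regulator gene *Elf5* with its relative *Ehf*, and *Csn3*, *Lcn2* and *Wfdc18* among the secreted proteins. The tenth was *Dsp*, which encodes the desmosome protein desmoplakin. *Trp63*, which encodes p63, was at 8.54, 11.2 and 14.4 CPM in HY/HY mice and at 5.64, 7.46 and 3.52 CPM in wild-type mice (log2 fold change 1.04 ± 0.443 SE, edgeR adjusted p = 0.190). For *Csn3* the log2 fold change was 1.04 ± 0.369 (SE, edgeR adjusted p = 0.115). *Elf5* was at 21.3, 24.4 and 22.4 CPM against 17.2, 14.5 and 12.2 CPM, with every HY/HY mouse higher (log2 fold change 0.63, edgeR adjusted p = 0.287).

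The 6 that were lower were all 4 luminal keratin genes, *Krt15* and *Sfn*. *Krt7* was at 122, 174 and 90.2 CPM in HY/HY mice and at 206, 279 and 223 CPM in wild-type mice (log2 fold change −0.87 ± 0.346 SE, edgeR adjusted p = 0.158). *Krt8* had a log2 fold change of −0.79 ± 0.328 (SE, edgeR adjusted p = 0.177). With only the libraries at 8°C in the fit, 7 members were called, where 10.7% of all genes were: *Csn3*, *Elf5*, *Krt14*, *Krt5* and *Trp63* higher, and *Krt18* and *Krt7* lower. Without warm HY/HY library 3, *Csn3* was called higher and *Krt7* lower, where 7.33% of all genes were called. Without both libraries that stood apart, *Csn3*, *Elf5* and *Trp63* were called higher and *Krt18*, *Krt7* and *Krt8* lower, where 8.18% of all genes were called.

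**Figure D4:**
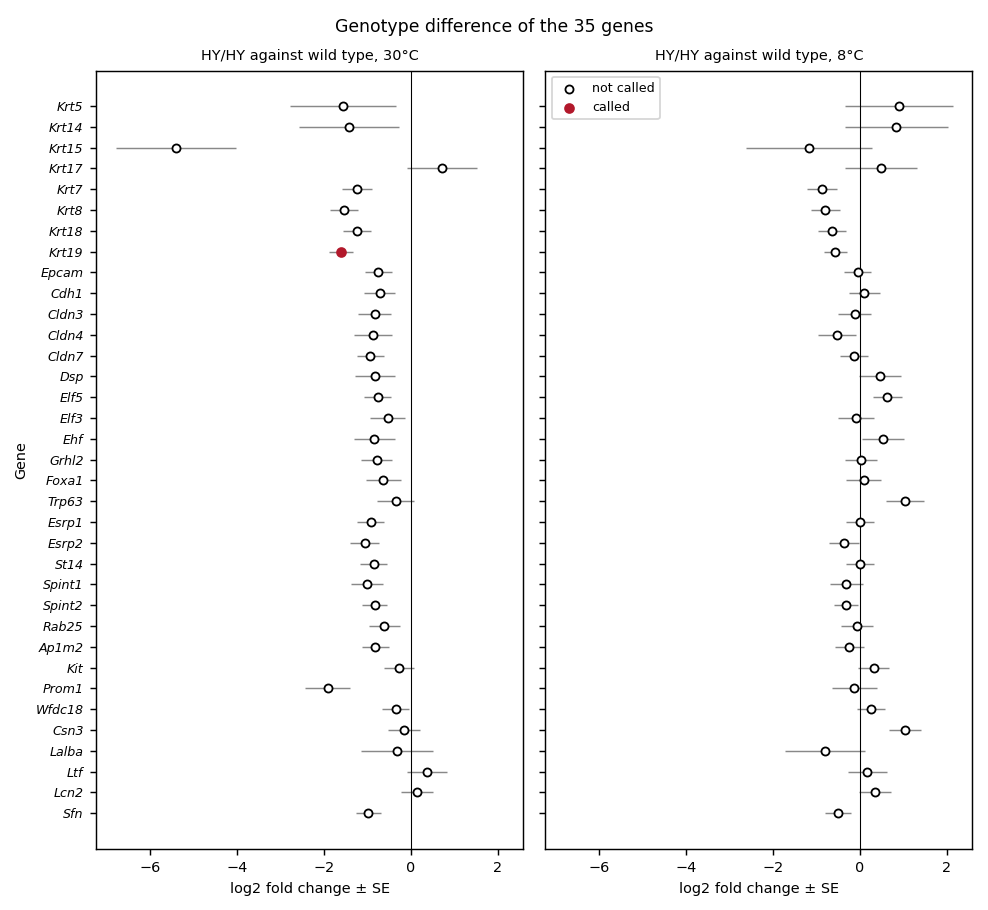
Log2 fold change of each of the 35 members in HY/HY against wild-type mice (points, with bars of 1 SE) at 30°C and at 8°C, with filled points for genes that passed the test. At 30°C 32 of 35 points are negative and *Krt19* alone is filled, and at 8°C 17 are positive, 18 are negative and 0 are filled.

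Because the members' summed level varied between pads, the members were also set against *Epcam*, as counts per count of *Epcam* in the same library. This scale was chosen after the values were seen and was used without a test. Every gene shifts on this scale when *Epcam* does: of 16539 genes, 26.3% lay wholly higher and 0.720% wholly lower in warm HY/HY than in warm wild-type mice, and 9.65% and 10.7% in cold HY/HY than in cold wild-type mice. In counts per *Epcam* count *Csn3* was higher and 3 of the 4 luminal keratin genes were lower in HY/HY than in wild-type mice at each temperature, without overlap. *Csn3* was at 0.195, 0.187 and 0.235 counts per *Epcam* count in warm wild-type mice, at 0.281, 0.350 and 0.243 in warm HY/HY mice, at 0.542, 0.366 and 0.452 in cold wild-type mice and at 0.930, 0.647 and 1.41 in cold HY/HY mice. No group overlapped its neighbour in this order. Per count of *Cdh1* in place of *Epcam*, the order of the groups' means was the same, but the genotypes overlapped at 30°C.

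*Krt8* was at 3.13, 3.18 and 3.48 counts per *Epcam* count in warm wild-type mice and at 1.75, 1.91 and 2.09 in warm HY/HY mice, and at 3.71, 3.57 and 5.02 in cold wild-type mice and at 2.55, 2.80 and 1.78 in cold HY/HY mice. *Krt18* and *Krt19* were likewise lower in every HY/HY mouse than in every wild-type mouse at each temperature, per count of *Epcam* and per count of *Cdh1*. *Krt7* overlapped at 30°C (1.73, 1.25 and 1.97 against 0.956, 1.30 and 1.08) and did not at 8°C (1.45, 1.68 and 1.76 against 0.893, 1.09 and 0.743).

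*Elf5* was at 0.0819 to 0.113 counts per *Epcam* count in warm wild-type and 0.0930 to 0.105 in warm HY/HY mice, at 0.0877 to 0.121 in cold wild-type mice and at 0.152 to 0.184 in cold HY/HY mice. Only the last group stood clear of the others. *Ltf* and *Lcn2* per *Epcam* count did not overlap between the temperatures in wild-type mice, nor did 67.8% of all genes in the same direction, with 0.331 to 0.557 and then 0.892 to 1.15 for *Ltf*, and 0.155 to 0.182 and then 0.315 to 0.353 for *Lcn2*. Of the 34 members other than *Epcam*, 5 lay wholly higher and 1 wholly lower per *Epcam* count in cold than in warm wild-type mice, against 67.8% and 0.423% of all genes. In cold HY/HY against cold wild-type mice 8 and 10 of the 34 did, against the 9.65% and 10.7% given above.

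**Figure D5:**
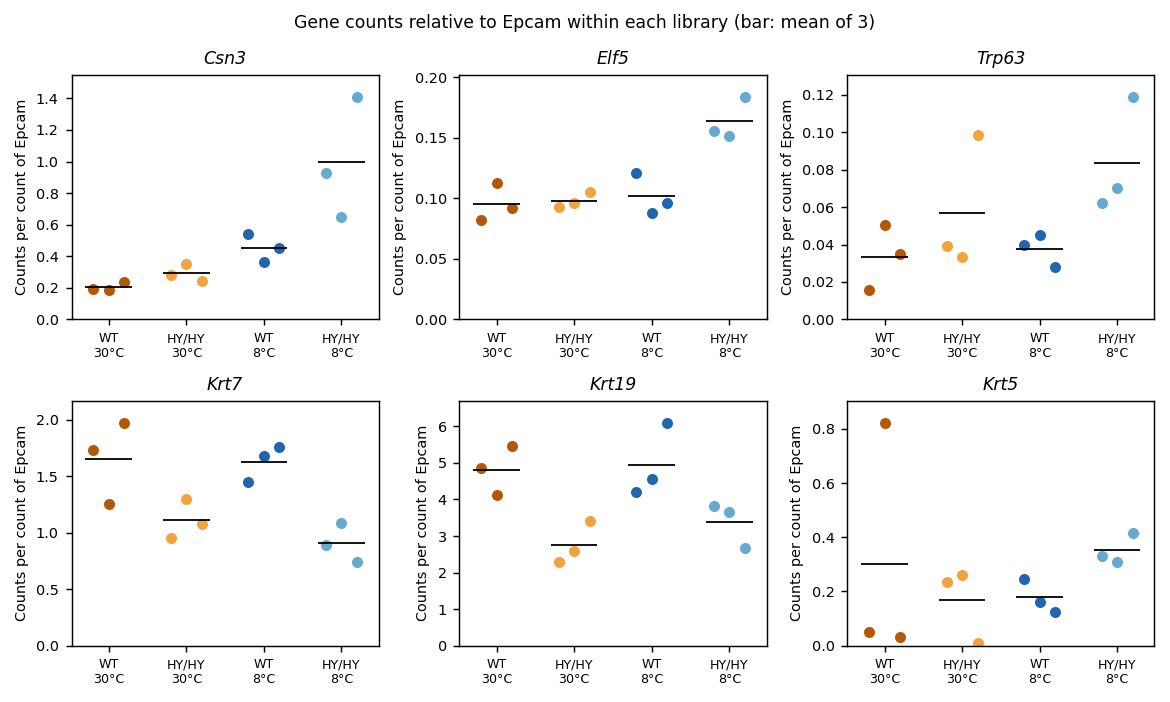
Counts of *Csn3*, *Elf5*, *Trp63*, *Krt7*, *Krt19* and *Krt5* per count of *Epcam* in the same library, 1 panel for each gene, with the 12 libraries as points by group and a bar at the mean of 3. *Csn3* has the lowest mean, 0.206, in warm wild-type mice and the highest, 0.994, in cold HY/HY mice, while *Krt19* is lower in every HY/HY mouse than in every wild-type mouse at the same temperature.

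A longer list of 61 other mammary genes, of which 54 were tested, gave the wider setting. In wild-type mice 19 of the 54 fell with cold, 1 rose and the median log2 fold change was −0.93, against −0.07 over all genes, of which 6.93% fell and 10.3% rose. Without warm wild-type library 2 the count that fell was 7 (11.3% of all genes were called in either direction). With single libraries left out it ran from 3 without cold wild-type library 3 (11.3%) to 29 without warm HY/HY library 3 (19.4%). Without both libraries that stood apart 19 fell and 4 rose (15.6% of all genes were called). The genes that fell with all libraries included *Gata3*, the main regulator of luminal cell fate, which was at 216, 258 and 144 CPM at 30°C and at 72.3, 79.1 and 50.9 CPM at 8°C (log2 fold change −1.61 ± 0.394 SE, edgeR adjusted p = 0.0129). *Wnt4*, a signal that luminal cells send under progesterone, fell by 1.28 (edgeR adjusted p = 0.00712), *Stat5a*, which carries the prolactin signal, by 0.75 (adjusted p = 0.0386) and *Ovol1* and *Ovol2*, which encode epithelial zinc finger repressors, by 1.60 and 1.35 (adjusted p = 0.00496 and 0.0129). The other 14 were *Bspry*, *Cited1*, *Crb3*, *Epn3*, *Folr1*, *Fxyd3*, *Grhl1*, *Marveld3*, *Pkp3*, *Prss8*, *Spdef*, *Tbx3*, *Tjp3* and *Trps1*. *Mylk*, the kinase of myosin in contractile cells of ducts and vessels, rose by 0.59 on the log2 scale (edgeR adjusted p = 0.00973).

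In HY/HY mice 0 of the 54 were called with cold by edgeR, where 0.248% of all genes were, and 7 had an unadjusted p under 0.05. Between the genotypes at 8°C only *Areg* was called, where 5.93% of all genes were (1.51% higher and 4.42% lower). *Areg* encodes amphiregulin, the growth factor that oestrogen-responsive luminal cells release. It was at 297, 95.4 and 424 CPM in warm wild-type and 31.9, 69.3 and 72.7 CPM in warm HY/HY mice, and at 70.8, 98.6 and 135 CPM in cold wild-type and 14.5, 14.3 and 5.11 CPM in cold HY/HY mice. No HY/HY mouse reached a wild-type mouse at the same temperature, and at 8°C the log2 fold change was −3.15 ± 0.561 (SE, edgeR adjusted p = 0.00734). The call held in all 21 alternative fits, with an adjusted p between 1.01e-05 and 0.0409.

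At 30°C *Folr1*, a folate receptor of secretory epithelium, and *Ovol1* were lower in HY/HY mice (log2 fold changes −1.55 and −1.57, edgeR adjusted p = 0.0195 and 0.0421). *Mylk* was higher (0.72, edgeR adjusted p = 0.0357). Of all genes, 0.441% were called lower and 0.562% higher. Over 21 alternative fits the call at 30°C was lost in 15 for *Ovol1*, in 13 for *Mylk* and in 3 for *Folr1*. *Folr1* was at 6.07, 5.98 and 6.16 CPM in warm wild-type and 2.01, 2.68 and 1.45 CPM in warm HY/HY mice, and at 3.42, 4.37 and 3.01 CPM in cold wild-type and 4.20, 3.81 and 3.08 CPM in cold HY/HY mice. It was the only gene of either mammary list to pass the interaction test (log2 difference 1.60 ± 0.333 SE, edgeR adjusted p = 0.0327), where 2.24% of all genes passed. The adjusted p ran from 0.000867 to 0.102 over 20 alternative fits and was above the limit in 10 of them.

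The genes of the abundant milk proteins were near 0 in every library. *Csn1s1*, *Csn1s2a*, *Csn2* and *Wap*, which encode the main milk proteins, did not exceed 0.0647, 0.0754, 0.129 and 0.128 CPM, and *Lalba*, which encodes the milk protein alpha-lactalbumin, was between 0 and 1.11 CPM. The oestrogen receptor gene *Esr1*, which stromal and fat cells also express, was at 48.7 to 119 CPM. *Kit*, a receptor of luminal progenitors, is also a mast cell gene: it was at 22.2 to 70.2 CPM, beside 1.06 to 4.14 CPM of *Cpa3* and 3.65 to 9.33 CPM of *Mcpt4*, and 8 mast cell genes summed to 11.4 to 32.7 CPM. The mesothelial genes *Msln*, *Upk3b* and *Wt1*, whose cells also make simple keratins, did not exceed 0.0387, 0.0811 and 0.0742 CPM.

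Genes with a like order of the 12 libraries were looked for among all others. Each member's log2 CPM was first standardised, by subtracting its mean over the 12 libraries and dividing by its SD. The mean of the 35 standardised members was compared over the 12 libraries with the log2 CPM of 15866 other genes. This is a description only, since all share the same libraries and the libraries that stood apart. The 10 genes with the highest Pearson's r included *Ddi2* (0.985), *Cdcp1* (0.982), *Ildr1* (0.977), *Rhou* (0.976), *Fam129b* (0.976), *Spnb3* (0.973), *Tmem184a* (0.973) and *Rab11fip1* (0.972). Of the 10, 1 was in the longer mammary list, and of the highest 30, 3 were. By Spearman's rho, 3 of the 10 were again among the highest 10. Among the members the r with their own mean was highest for *Cdh1* (0.981), *Esrp1* (0.968) and *Epcam* (0.963) and lowest for *Lalba* (0.351), *Csn3* (0.275) and *Trp63* (0.236).

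Promoter sequence was examined because most members varied together over the libraries. Sequences were taken from RefSeq (GRCm38.p6), 300 bases long, from 250 before to 50 after an annotated start of a gene. They were available for 24 of the 35 members and for 27025 genes in all. *Elf5*, *Prom1*, *Kit* and *Cldn7* also had a window at another annotated start, and a match in any window of a gene counted. The E-box CAGGTG, which can be bound by the repressors SNAI1, SNAI2 and ZEB1 in front of epithelial genes, was present on either strand in 18 of the 24 (75.0%), against 22.6% of all genes. GCCNNNGGC, bound by AP-2 factors, was in 8 of 24 (33.3%, against 18.5% of all), TATAAA in 2 (8.33%, against 15.7%), and AACCGGTT, bound by grainyhead-like factors, in 0 (against 0.174%). The members' promoters were also richer in G and C, with a median of 58.5% against 52.8% for all genes, and this was not allowed for in the shares. A match of letters is not evidence that a factor binds. No CAGGTG lay in the windows of *Kit*, *Krt14*, *Lalba*, *Lcn2*, *Spint1* and *Wfdc18*.

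The 6 members with at least 2 such E-boxes in the 250 bases before an annotated start are printed below. They are given 5′ to 3′ on the strand of the gene and show the element in repeat for genes of different function. The *Cldn7* sequence lies before a start inside the gene, and its window at the start of the gene held 0 E-boxes. *Elf5*, *Spint2*, *Ap1m2*, *Cldn7* and *Epcam* were among the 13 that fell with cold in wild-type mice, and *Rab25*, a small GTPase of apical recycling, was not. The 13 were out of 35 members, where 6.93% of all genes were called lower, and a link with the E-boxes was not tested. Capitals mark CAGGTG and its reverse complement CACCTG.
Elf5, chr2:103411848-103412097, plus strand: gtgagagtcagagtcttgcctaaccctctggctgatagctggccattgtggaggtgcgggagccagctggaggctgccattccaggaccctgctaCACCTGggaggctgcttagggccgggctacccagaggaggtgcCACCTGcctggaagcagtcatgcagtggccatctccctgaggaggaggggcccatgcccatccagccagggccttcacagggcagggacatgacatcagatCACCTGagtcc
Rab25, chr3:88548280-88548529, minus strand: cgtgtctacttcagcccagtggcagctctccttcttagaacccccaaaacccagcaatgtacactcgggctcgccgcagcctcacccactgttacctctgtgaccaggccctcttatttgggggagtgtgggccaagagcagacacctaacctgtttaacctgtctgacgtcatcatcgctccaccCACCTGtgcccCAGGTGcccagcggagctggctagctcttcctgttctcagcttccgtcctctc
Spint2, chr7:29281978-29282227, minus strand: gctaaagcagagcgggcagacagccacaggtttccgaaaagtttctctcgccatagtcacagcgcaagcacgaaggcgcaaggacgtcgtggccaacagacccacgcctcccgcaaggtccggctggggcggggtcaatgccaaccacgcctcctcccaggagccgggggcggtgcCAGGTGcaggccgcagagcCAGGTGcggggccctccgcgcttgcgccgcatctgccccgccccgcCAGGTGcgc
Ap1m2, chr9:21312334-21312583, minus strand: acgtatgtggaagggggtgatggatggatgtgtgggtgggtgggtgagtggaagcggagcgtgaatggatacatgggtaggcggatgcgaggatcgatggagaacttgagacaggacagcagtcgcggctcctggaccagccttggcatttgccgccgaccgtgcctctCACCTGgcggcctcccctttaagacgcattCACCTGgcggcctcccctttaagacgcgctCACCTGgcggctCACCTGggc
Cldn7, chr11:69965171-69965420, plus strand: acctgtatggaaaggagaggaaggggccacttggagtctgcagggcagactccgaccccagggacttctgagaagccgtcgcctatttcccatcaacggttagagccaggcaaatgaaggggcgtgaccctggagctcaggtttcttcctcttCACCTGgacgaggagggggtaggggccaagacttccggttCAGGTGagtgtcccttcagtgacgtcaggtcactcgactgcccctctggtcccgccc
Epcam, chr17:87635729-87635978, plus strand: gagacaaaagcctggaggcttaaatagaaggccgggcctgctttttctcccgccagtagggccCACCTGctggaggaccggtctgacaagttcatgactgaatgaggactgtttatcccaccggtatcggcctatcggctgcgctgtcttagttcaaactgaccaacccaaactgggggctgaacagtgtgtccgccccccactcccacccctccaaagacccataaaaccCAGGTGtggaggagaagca
In *Ap1m2* there were 4 E-boxes, 3 of which lay within the 51 bases before the start. *Elf5* and *Spint2* held 3 each, with the nearest at 11 and 9 bases from the start, and *Rab25*, *Cldn7* and *Epcam* held 2 each.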

How the data were processed

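The 35 members and all gene lists were chosen with earlier results of these data known. Per the labels and the methods of the study, RNA was sequenced as paired 50-base reads, trimmed with fastp and aligned to mm10 with STAR, and the submitters' processing notes also name FastQC and StringTie. The authors deposited raw counts of read pairs for 55401 genes, per strand and for both strands together. The sense-strand counts were used, and 4 entries without a gene were left aside: 25.1% to 28.8% of pairs were unmapped, 26.7% to 32.2% matched several places, 1.99% to 3.20% lay outside genes and 0.930% to 1.10% were ambiguous. Symbols were matched through RefSeq, 3 of them by older names. From 13592629 to 26352081 counts per library remained (36.5% to 44.2% of read pairs).

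In R 4.3.3, edgeR 4.0.16 (filterByExpr, TMM) fitted a quasi-likelihood model with 4 group means to 12 libraries and 16540 genes (8 residual degrees of freedom, common biological coefficient of variation 20.7%), tested on simulated data. The tests were two-sided. A gene was called at a Benjamini-Hochberg adjusted p under 0.05 and a fold above 1.5 or below 0.67, and for the interaction by the adjusted p alone. The 4 groups followed the labels, and the 5 comparisons were cold in each genotype, genotype at each temperature and their interaction. Comparisons that use the same group share its libraries, so the warm wild-type mice enter both the wild-type cold response and the comparison of genotypes at 30°C. Named genes were the 35 members, called genes of the other lists or, where none was called, the 3 most abundant, the 10 genes most like the members among those with a mean of at least 10 counts, and *Kdm3a*. Some of the 10 are not reported here. *Ucp1*, *Krt1*, *Krt10*, *Esr1*, *Csn1s1*, *Csn1s2a*, *Csn2*, *Wap*, *Col17a1*, *Cdh3*, mast cell and mesothelial genes and the 3 low neutrophil genes were named after their values were seen. Merged exon lengths came from GENCODE M1 on mm9, and no coordinates were taken from it. Alternatives were DESeq2 1.42.0, library totals, other filters, limits and strands, fewer libraries and a replicate block. By the correlation of deviations from the group means, replicate numbers paired warm with cold HY/HY mice (0.112, 0.199 and 0.303 for numbers 1, 2 and 3) and no other groups. Ratios, correlations and figures were made with Python 3.11.15, pandas 2.3.3, scipy 1.17.1 and matplotlib 3.10.9.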

Additional observations from a re-analysis of the deposited data

Results flagged for a closer look

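The cold response of *Folr1* differed between the genotypes by 1.60 on the log2 scale in the interaction test of edgeR (adjusted p = 0.0327), with lower levels in the 3 cold wild-type mice than in the 3 at 30°C (adjusted p = 0.0347) and higher means in cold HY/HY mice (3.70 ± 0.569 CPM at 8°C against 2.05 ± 0.615 CPM at 30°C, SD).

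Counts on the strand opposite to a gene entered the comparisons only in the alternative fit with both strands together. For *Esrp2* they were 24.9% of its counts on either strand (2367 opposite against 7156 sense), and for *Grhl2* 7.0%, whereas *Krt5* and *Krt14* had 0.0711% and 0.0553%. A transcript of the other strand that overlaps these genes was not looked for.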

How the results depend on the processing

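The limits of these data are 3 mice per group, a summed level of the members that varied between pads, and 2 libraries that stood apart. The pooled SD between mice of a group of the members' mean log2 CPM was 0.62. The interaction gave 0 called members in every alternative fit, and the members' median log2 fold change in cold wild-type mice stayed negative, between −1.37 and −0.71, over 21 fits.

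The number of members that fell with cold in wild-type mice, 13, was 23 at an adjusted p under 0.1. The share of all genes at that limit is not given here. Percentages in this paragraph are shares of all genes called in either direction, 17.3% for the 13. The number was 26 with library totals (31.4%) and 21 with DESeq2 (18.9%). It was 23 without a filter (9.93%) and 21 when the other libraries were left out of the fit (19.0%). With single libraries left out it ran from 0 (11.3%) to 24 (19.4%). Library totals in place of TMM moved the median of all genes from −0.07 to −0.41 in this comparison, from −0.01 to −0.15 in cold HY/HY mice, from 0.01 to 0.15 between genotypes at 8°C and from 0.04 to 0.25 for the interaction. In cold HY/HY mice the count was 1 with DESeq2 (2.04%) and 0 to 5 with single libraries left out (up to 3.92%). It was 11 without both libraries that stood apart (5.10%), an alternative chosen after seeing the data. Between genotypes at 8°C it was 1 without a filter (3.68%) and 7 with only those libraries (10.7%). It was 0 to 2 with single libraries left out (2.03% to 7.33%) and 6 without both (8.18%). At 30°C it was 6 at an adjusted p under 0.1, again without a share, and 0 with library totals (0.254%) or with only those libraries (0.00%). It was 7 with DESeq2 (4.05%) or without a filter (1.83%) and 2 with both strands (1.13%). With single libraries left out it was 0 to 2 (0.153% to 2.16%). Without both it was 3 (0.386%), and the median went from −0.83 to −0.13. The median of the interaction went from 0.71 to 0.077. *Krt15* changed sign in cold wild-type mice, from −3.43 to 0.67 on the log2 scale without warm wild-type library 2 and also to 0.67 without both, and with single libraries left out it ran from −3.99 to 0.67. The causes of these shifts beyond the libraries removed were not tested.

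Over the 18 pairs of libraries with the same replicate number the correlation of deviations ran from −0.0695 to 0.346, with 11 above 0.1. Only for warm and cold HY/HY mice were all 3 pairs above 0.1, and each library there correlated best with its own number. For the other pairs of groups the numbers were not taken to pair the mice. With the replicate block the called members were 21 in cold wild-type mice (19.5% of all genes), 0 in cold HY/HY mice (0.967%), 2 between genotypes at 8°C (7.27%), 12 at 30°C, all lower (3.11%), and 0 for the interaction (3.18%).

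The basal keratins differed 37.1-fold between the highest and lowest library on their share of the members' sum and 18.3-fold by means over log2 CPM. The members' sum differed 5.7-fold in CPM and 7.27-fold as a share of all counts. Of the 10 most similar genes by Pearson's r, 3 were shared with Spearman's rho. *Csn3* in HY/HY against cold wild-type mice was 2.19-fold per *Epcam* count, 2.11-fold per *Cdh1* count and 3.51-fold per *Krt18* count, and *Krt7* 0.557-fold, 0.504-fold and 0.850-fold.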

Other observations

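Of the 8 muscle genes tested, 6 fell with cold in wild-type mice (median log2 fold change −5.41 over the 8), and all were high in warm wild-type library 2. *Calml3*, a gene of stratified epithelium, was called lower with cold in wild-type mice (log2 fold change −3.09, edgeR adjusted p = 0.0484). Its value rests on warm wild-type library 2, at 6.88 CPM against 0.272 and 0.690 CPM in libraries 1 and 3. At 8°C it was at 0.256 to 0.371 CPM, and the groups overlapped. Of the fat-cell list *Lep* and *Cfd*, which encode leptin and adipsin, fell with cold in wild-type mice by 1.38 and 0.97 (edgeR adjusted p = 0.0494 and 0.0332). At 8°C *Lep* and *Retn*, which encodes resistin, were higher in HY/HY than in wild-type mice (log2 fold changes 1.99 and 0.80, edgeR adjusted p = 0.0265 and 0.0362). The 12 genes of lymph node summed to 6.02 to 40.8 CPM and the 7 of mesothelium to 3.06 to 5.71 CPM. None of the tested genes of the lymph node (11), mesothelium (4) and mast cell (5) lists was called by edgeR in any of the 5 comparisons.

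Among the longer mammary list, the collagen gene *Col17a1* was at 3.80, 90.8 and 1.86 CPM in warm wild-type and 14.3, 13.9 and 1.14 CPM in warm HY/HY mice. At 8°C it was at 10.4, 8.52 and 4.93 CPM in wild-type mice and 16.2, 16.6 and 14.7 CPM in HY/HY mice. *Cdh3*, a cadherin gene of basal cells, was at 0.208 CPM in warm HY/HY library 3 and at 1.38 to 8.71 CPM in the other 11 libraries. These genes were chosen after their values were seen, and they had the same lowest library as *Krt5*.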
